A study of Mus musculus with 6 samples.

Results

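The 10 genes described here encode the protein complexes that start autophagy, the ULK1 kinase complex (*Ulk1*, *Ulk2*, *Atg13*, *Atg101* and *Rb1cc1*) and the Beclin 1 lipid kinase complexes (*Becn1*, *Pik3c3*, *Pik3r4*, *Atg14* and *Uvrag*). They were chosen by gene symbol, and each matched 1 of the 46959 rows of the deposited CPM table, which holds read counts scaled to a common library size. Haematopoietic stem cells (HSCs) were sorted from the bone marrow of littermate mice aged 8 weeks per the series' design text, as 3 control and 3 MaeaCsf1r-Cre replicates. Each replicate was 1 library from about 2000 cells pooled from 2 mice. In MaeaCsf1r-Cre mice the floxed *Maea* gene, which encodes a subunit of an E3 ubiquitin ligase, is deleted by Cre under the *Csf1r* promoter, which is classically active in mononuclear phagocytes and here also recombines in HSCs. The other littermates are labelled only as control, and the labels do not say whether any of them carried Cre. The question was whether transcripts of the initiation machinery differ between the groups, since the study examined autophagy in these cells. From its RNA-seq of HSCs the paper reported that core autophagy and pro-autophagy genes were not significantly changed. It reported reduced autophagy flux in MaeaCsf1r-Cre HSCs. From electron microscopy of these cells it reported that the autophagic compartment matured poorly and that induction of autophagy was also impaired.

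In autophagy, the ULK1 complex is restrained by mTORC1 when nutrients are plentiful and is activated by AMPK when energy is low. Once active, it phosphorylates and recruits the Beclin 1 complex, whose lipid kinase VPS34 makes phosphatidylinositol 3-phosphate (PI3P) on the membrane from which the autophagosome grows. ATG14 directs this kinase to autophagosome formation, whereas UVRAG takes the same place in a complex that also serves endosomes and later steps. Much of the control of both complexes is by phosphorylation and ubiquitination, which RNA levels do not measure. Autophagy is known to be needed for the maintenance of HSCs.

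Control replicates 1, 2 and 3 held 108, 116 and 123 CPM of *Maea* and the same-numbered MaeaCsf1r-Cre replicates 76.9, 88.6 and 101 CPM, so every MaeaCsf1r-Cre library was below every control library. The ratio of the means was 0.767 and the log2 fold change -0.39 (95% interval -0.70 to -0.07), with an adjusted p of 0.967 from limma, or 0.218 when same-numbered libraries were blocked. These values cover the whole gene, not the deleted part alone. The reads behind the scaling, estimated from the steps between low values, numbered 32966000 to 39612000 in control and 44157000 to 60935000 in MaeaCsf1r-Cre libraries, so the MaeaCsf1r-Cre libraries were all deeper. All 10 HSC markers listed were present, with a summed level of 1254 to 1949 CPM in control and 896 to 1630 CPM in MaeaCsf1r-Cre libraries. The 8 macrophage markers summed to 19.9 to 70.6 CPM in control and 3.49 to 47.9 CPM in MaeaCsf1r-Cre libraries, and 4 of them were lower in every MaeaCsf1r-Cre library than in any control, as were 2 of the 7 neutrophil markers and 6.06% of all genes tested. Those 2 neutrophil markers, *S100a9* and *Ngp*, were under 1 CPM in all libraries and were not among the genes tested. The B cell markers *Ms4a1* and *Pax5* and the T cell markers *Cd3g* and *Cd8a* were listed at 0 in all libraries. The B cell list as a whole summed to 16.4 to 27.4 CPM in control and 13.1 to 24.2 CPM in MaeaCsf1r-Cre libraries, nearly all of it *Cd79b*, and the T cell list to 1.58 to 3.16 and 0.272 to 1.58 CPM, nearly all of it *Cd4*. Erythroid markers summed to 156 to 436 CPM in control and 186 to 383 CPM in MaeaCsf1r-Cre libraries, neutrophil markers to 27.8 to 219 and 4.58 to 114 CPM, megakaryocyte markers to 213 to 969 and 284 to 593 CPM, and stromal and endothelial markers to 14.3 to 34.5 and 4.33 to 39.4 CPM. The largest part of the erythroid sum was *Klf1* in every library, at 94.0 to 331 CPM. That of the neutrophil sum was *Mpo*, at 3.77 to 181 CPM, while *S100a9*, *Ltf*, *Ngp* and *Camp* stayed under 1 CPM. In libraries made from pooled cells, fewer cells of a type and less RNA per cell cannot be told apart.

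The transcripts of both complexes were present in every library, and none of the 10 genes differed between the groups after adjustment over all genes. Each passed the filter of at least 1 CPM in at least 3 libraries and was tested with limma on log2(CPM + 1), MaeaCsf1r-Cre against control. With a threshold of 0.05 on the adjusted p, 0 of the 10 genes passed, where 0.00772% of the 12955 genes tested did. With the replicate number as a block the count was again 0 of 10, beside a background that was also 0.00772%. At an unadjusted p under 0.05 there was 1 member, *Rb1cc1*, lower, in either fit, beside 3.19% of all genes tested that were lower at that level, and 10.8% with the block. By fitted log2 fold change 7 of the 10 genes were lower in MaeaCsf1r-Cre HSCs, as were 60.9% of all genes tested. The median log2 fold change of the members was -0.04, and that of all genes tested was -0.06.

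**Figure D1:**
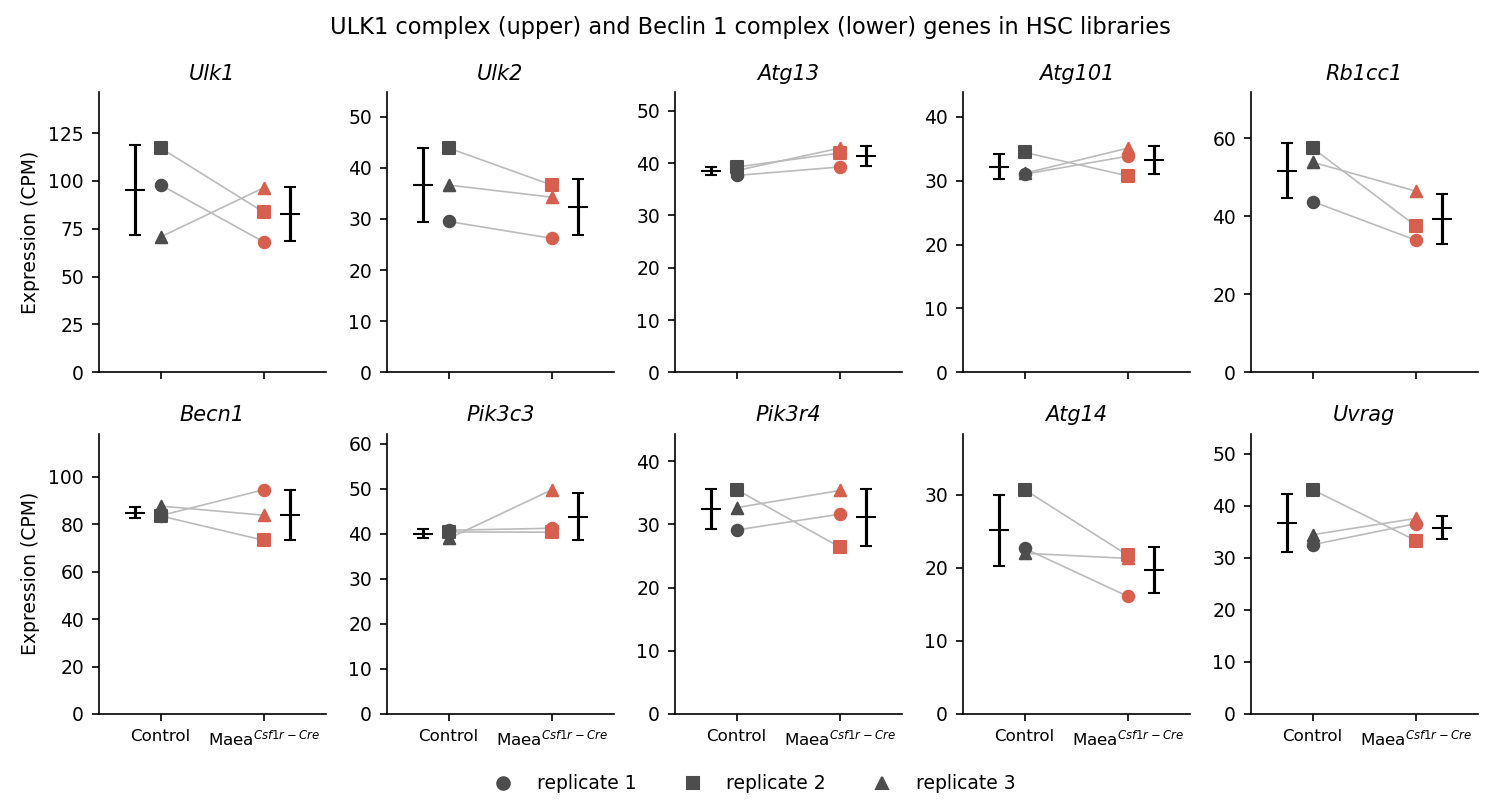
Expression in CPM (y axes, starting at 0) of each initiation gene in 3 control and 3 MaeaCsf1r-Cre HSC libraries. Symbols mark the replicate number, grey lines join libraries with the same number, and bars beside the points show mean and SD. *Rb1cc1*, *Ulk2* and *Atg14* were lower in each of the 3 same-numbered pairs, and *Atg13* was higher in each.

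*Ulk1* (chromosome 5 of mm10, 110784488 to 110810097), the serine/threonine kinase that receives signals from mTORC1 and AMPK, stood at 97.9, 117 and 70.8 CPM in replicates 1, 2 and 3 of the control group and at 68.0, 83.6 and 96.5 CPM in those of the MaeaCsf1r-Cre group. The groups overlapped, and the third pair ran opposite to the other two. Mean and SD of 3 libraries were 95.3 ± 23.3 CPM for control and 82.7 ± 14.3 CPM for MaeaCsf1r-Cre. The log2 fold change was -0.19 (95% interval -0.67 to 0.30, adjusted p = 0.967 from limma). It was -0.02 without control replicate 2, -0.05 without MaeaCsf1r-Cre replicate 1, -0.30 without MaeaCsf1r-Cre replicate 3 and -0.38 without control replicate 3. *Ulk2* (chromosome 11, 61775649 to 61855073), a close relative that can act in place of ULK1, measured 29.5, 43.9 and 36.6 CPM in the controls and 26.2, 36.6 and 34.3 CPM in MaeaCsf1r-Cre replicates 1, 2 and 3. Each MaeaCsf1r-Cre library was below the control library of its number, while the groups as a whole overlapped. Its log2 fold change was -0.17 (95% interval -0.62 to 0.28, adjusted p = 0.967, and 0.518 with the replicate block). It was -0.0311 without MaeaCsf1r-Cre replicate 1, -0.0363 without control replicate 2, -0.26 without MaeaCsf1r-Cre replicate 2 and -0.31 without control replicate 1. Per kilobase of exon, *Ulk1* was at 2.12 to 3.64 times the level of *Ulk2* across the 6 libraries, a mean ratio of 2.90 ± 0.761 in control and 2.82 ± 0.295 in MaeaCsf1r-Cre HSCs (SD, n = 3 each).

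The adaptors of the ULK1 complex varied little among replicates. *Atg13* (chromosome 2, 91674618 to 91710576), whose protein binds ULK1 to its partners and is a target of mTORC1, measured 37.6, 39.3 and 38.6 CPM in the controls and 39.3, 41.9 and 42.9 CPM in MaeaCsf1r-Cre replicates 1, 2 and 3. Every MaeaCsf1r-Cre library was above every control library, but MaeaCsf1r-Cre replicate 1 exceeded control replicate 2 by 0.0162 CPM, which is 0.987 of a read at the depth of that library, so these 2 libraries cannot be told apart. It was the single member of which this held in the upward direction, as it did for 2.49% of all genes tested. The log2 fold change was 0.10 (95% interval -0.18 to 0.38, adjusted p = 0.967, and 0.696 with the block). *Atg101* (chromosome 15, 101284272 to 101290945), which stabilises ATG13 in the complex, measured 31.0, 34.4 and 31.2 CPM in the controls and 33.9, 30.8 and 35.1 CPM in MaeaCsf1r-Cre replicates 1, 2 and 3. The groups overlapped, with a log2 fold change of 0.04 (95% interval -0.26 to 0.35, adjusted p = 0.981). With 1 library left out in turn it ran from 0.0041, without MaeaCsf1r-Cre replicate 3, to 0.0970, without MaeaCsf1r-Cre replicate 2.

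*Rb1cc1* (chromosome 1, 6206197 to 6276648) encodes FIP200, the large scaffold on which the ULK1 complex assembles, and loss of FIP200 is known to deplete fetal HSCs. It stood at 43.8, 57.5 and 53.9 CPM in replicates 1, 2 and 3 of the control group and at 33.9, 37.5 and 46.5 CPM in those of the MaeaCsf1r-Cre group. Each MaeaCsf1r-Cre library was below its same-numbered control, by 0.36, 0.60 and 0.21 on the log2 scale, while MaeaCsf1r-Cre replicate 3 lay above control replicate 1. Mean and SD of 3 libraries were 51.7 ± 7.10 CPM for control and 39.3 ± 6.48 CPM for MaeaCsf1r-Cre, a ratio of 0.759. The log2 fold change of -0.39 (95% interval -0.78 to -0.0006) was the lowest of the 10 genes, with an unadjusted p of 0.0497 and an adjusted p of 0.967 from limma, and 0.0115 and 0.266 with the replicate block. Leaving out each library in turn gave -0.52 to -0.29, and the unadjusted limma p was then 0.0243 to 0.154, 0.0615 with median-ratio scaling and 0.0658 without a mean-variance trend. After correction for exonic length, described further on, it was 0.134, and 0.0708 with the block. Within a library, the ratio of *Rb1cc1* to *Atg13* in CPM was 1.16, 1.47 and 1.40 in control and 0.863, 0.894 and 1.08 in MaeaCsf1r-Cre replicates 1, 2 and 3, so the groups did not overlap in this ratio. Of the other ratios formed, only that of *Atg14* to *Atg13* did not overlap either (0.570 to 0.782 in control, 0.410 to 0.517 in MaeaCsf1r-Cre libraries). Each sets a gene that was lower in every pair against *Atg13*, which was higher in every pair. These ratios were chosen with the values known and were not tested, and no share over all genes was computed.

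The order of the libraries by *Rb1cc1* was close to their order by HSC markers. The HSC markers summed to 1254, 1949 and 1781 CPM for replicates 1, 2 and 3 of the controls, against 896, 1306 and 1630 CPM for the MaeaCsf1r-Cre replicates. Within each group *Rb1cc1* and *Atg13* put the 3 libraries in the same order as the markers did, and no other member did so in both groups. Across the 6 libraries Pearson's r on log2 values was 0.938 for *Rb1cc1*, 0.892 for *Ulk2* and 0.828 for *Atg14*. It was 0.551 for *Ulk1*, 0.517 for *Pik3r4*, 0.444 for *Uvrag* and between -0.297 and 0.130 for the other 4 members. With each group centred on its own mean, it was 0.961 for *Rb1cc1*, 0.962 for *Atg13*, which was at 0.106 across the 6 libraries, 0.883 for *Ulk2* and 0.751 for *Atg14*. These values describe 6 libraries that share depth and cell composition with both measures, and the part of HSC marker content in the differences was not tested. How many of all genes tested follow the markers as closely was not computed, so the match is not shown to be particular to these members.

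For the shared core of the lipid kinase complexes the values of the groups overlapped, and equality of the groups was not tested. *Becn1* (chromosome 11, 101285952 to 101302286), whose protein Beclin 1 is the scaffold held by BCL2 until released, measured 83.7, 83.5 and 87.7 CPM in the controls and 94.6, 73.2 and 83.8 CPM in MaeaCsf1r-Cre replicates 1, 2 and 3. The control libraries lay close together and the MaeaCsf1r-Cre libraries fell on both sides of them. The log2 fold change was -0.03 (95% interval -0.32 to 0.27, adjusted p = 0.986), and 0.0673 without MaeaCsf1r-Cre replicate 2. Of the 4716 exonic bases of *Becn1*, 2598 are also covered by *Cntd1* on the opposite strand, and the strand is not stated to have been used in counting, but *Cntd1* averaged 1.80 CPM. *Pik3r4* (chromosome 9, 105642978 to 105687657), the regulatory subunit VPS15, measured 29.1, 35.5 and 32.7 CPM in the controls and 31.6, 26.4 and 35.4 CPM in MaeaCsf1r-Cre replicates 1, 2 and 3, with a log2 fold change of -0.06 (95% interval -0.43 to 0.31, adjusted p = 0.979). Without control replicate 2 it was 0.0031, and without MaeaCsf1r-Cre replicate 2 it was 0.0478. *Pik3c3* (chromosome 18, 30272747 to 30348126), the catalytic subunit VPS34, measured 40.8, 40.4 and 39.0 CPM in the controls and 41.3, 40.4 and 49.8 CPM in MaeaCsf1r-Cre replicates 1, 2 and 3. The first 2 MaeaCsf1r-Cre libraries matched the controls and the third stood above them. Its log2 fold change was 0.12 (95% interval -0.19 to 0.43, adjusted p = 0.967), and 0.03 without MaeaCsf1r-Cre replicate 3.

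**Figure D2:**
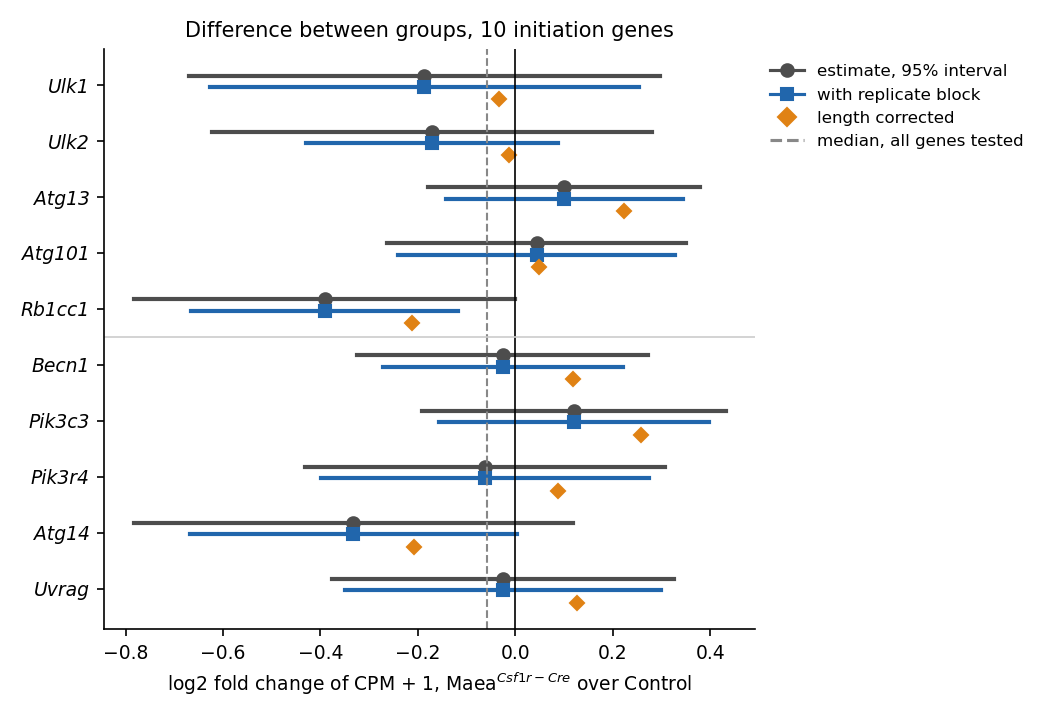
Log2 fold change of CPM + 1 (x axis, MaeaCsf1r-Cre over control) of each initiation gene (rows; ULK1 complex above the grey line, Beclin 1 complex below it). Circles with grey bars are the limma estimates with 95% intervals, and squares with blue bars the same with the replicate block. Diamonds are the estimates after correction for exonic length. The dashed line is the median of all genes tested, before that correction. The 10 intervals without the block run from -0.78 to 0.43, and in either fit only that of *Rb1cc1* lies wholly below 0.

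Of the subunits that tell the complexes apart, *Uvrag* (chromosome 7, 98885021 to 99141141) measured 32.5, 43.1 and 34.4 CPM in the controls and 36.6, 33.3 and 37.6 CPM in MaeaCsf1r-Cre replicates 1, 2 and 3. The groups overlapped, with a log2 fold change of -0.03 (95% interval -0.38 to 0.33, adjusted p = 0.989). Without control replicate 2 it was 0.0931, and without MaeaCsf1r-Cre replicate 2 it was 0.0249. *Atg14*, which marks the autophagy-specific complex, measured 22.7, 30.7 and 22.0 CPM in the controls and 16.1, 21.7 and 21.3 CPM in MaeaCsf1r-Cre replicates 1, 2 and 3. Every MaeaCsf1r-Cre library was below every control library, the nearest values, 21.7 and 22.0 CPM, being 13.3 reads apart at the depth of MaeaCsf1r-Cre replicate 2. It was the single member of which this held in the downward direction, as it did for 6.06% of all genes tested. Mean and SD of 3 libraries were 25.1 ± 4.84 CPM for control and 19.7 ± 3.13 CPM for MaeaCsf1r-Cre, and the log2 fold change was -0.33 (95% interval -0.78 to 0.12, unadjusted p = 0.127, adjusted p = 0.967), and with the block an adjusted p of 0.363. The difference was -0.18 without control replicate 2 and -0.20 without MaeaCsf1r-Cre replicate 1. *Atg14* had the lowest CPM of the 10 genes, from 747 to 1216 reads a library. Within a library the ratio of *Atg14* to *Uvrag* in CPM was 0.697, 0.712 and 0.639 in control and 0.440, 0.652 and 0.567 in MaeaCsf1r-Cre replicates 1, 2 and 3, lower in each of the 3 pairs, with 1 MaeaCsf1r-Cre library above the lowest control. This ratio was not tested.

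The promoters of *Atg14* and *Atg13* are shown because these are the members whose groups did not overlap, in opposite directions, though for *Atg13* by no more than a read. The sequences are from RefSeq on GRCm38.p6, from 220 bases before to 30 after the annotated start, on the minus strand, at chr14:47568405-47568654 for *Atg14* and chr2:91710563-91710812 for *Atg13*. The capitals mark CACGTG, the core of the element bound by TFEB and related factors that act on many autophagy and lysosome genes.

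Atg14: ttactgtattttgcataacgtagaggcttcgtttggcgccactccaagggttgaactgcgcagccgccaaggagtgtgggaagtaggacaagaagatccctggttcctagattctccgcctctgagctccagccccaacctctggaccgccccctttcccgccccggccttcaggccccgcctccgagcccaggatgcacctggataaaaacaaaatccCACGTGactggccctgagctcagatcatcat

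Atg13: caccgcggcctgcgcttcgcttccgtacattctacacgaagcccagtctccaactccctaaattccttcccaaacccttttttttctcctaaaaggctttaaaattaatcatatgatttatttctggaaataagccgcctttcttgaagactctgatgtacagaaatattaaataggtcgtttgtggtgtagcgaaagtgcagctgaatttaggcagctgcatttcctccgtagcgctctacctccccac

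Promoters of 300 bases were found for 7 of the 10 members, and *Rb1cc1*, *Becn1* and *Pik3c3* had none in the table used. CACGTG, which reads the same on both strands, was in 1 of the 7, that of *Atg14*, where it begins at the last base before the start, and in 7.15% of all 32851 promoters. The forkhead core TGTTTAC, searched on both strands, and the cyclic AMP element TGACGTCA were in none of the 7 and in 3.65% and 1.79% of all promoters. GENCODE also holds an *Atg14* transcript that starts further upstream, at 47570649. These matches describe letters in a window, and binding was not measured.

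Levels were compared between genes per kilobase of exon, since longer transcripts give more reads. In control HSCs *Atg101* was highest at 25.4 ± 1.52 CPM per kb, followed by *Ulk1* at 18.2 ± 4.45, *Becn1* with libraries from 17.7 to 18.6, *Atg13* at 10.5 ± 0.221, *Pik3c3* at 9.13 ± 0.220 and *Uvrag* at 7.11 ± 1.09 CPM per kb (SD, n = 3 each). *Rb1cc1*, *Atg14*, *Ulk2* and *Pik3r4* came last, at 6.38 to 6.80 CPM per kb. *Atg101* stood above *Ulk1*, *Becn1* above *Atg13*, and *Pik3c3* above *Uvrag* in all libraries without overlap. *Ulk1* and *Becn1* could not be ordered, nor could *Uvrag*, *Rb1cc1*, *Atg14*, *Ulk2* and *Pik3r4* among neighbours, since their control libraries overlapped. In MaeaCsf1r-Cre HSCs the means ran from 26.2 ± 1.77 CPM per kb for *Atg101* to 5.16 ± 0.852 CPM per kb for *Rb1cc1*, close to *Atg14* at 5.28 ± 0.839 CPM per kb. Lengths come from GENCODE, and with the longest transcript in place of all exons *Pik3c3* was at 12.3 CPM per kb in control and passed *Atg13* at 10.7 CPM per kb. The length of *Becn1* includes the 2598 of 4716 bases also covered by *Cntd1*. Whether its transcripts in these cells include them was not measured. A shorter length would raise *Becn1*, so its place beside *Ulk1* and *Atg101* is uncertain.

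**Figure D3:**
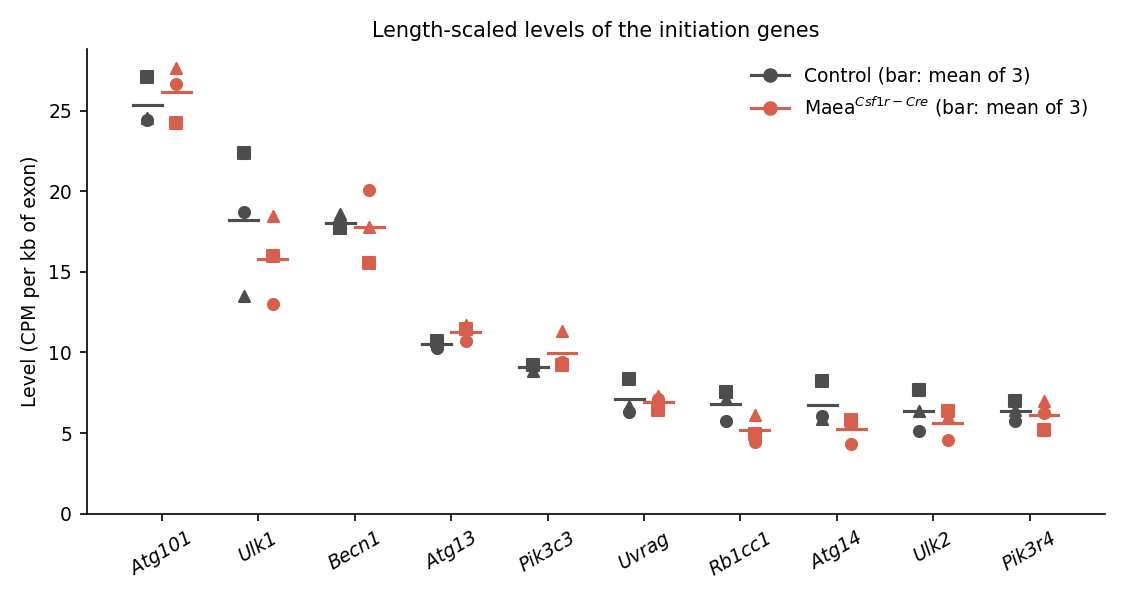
Level in CPM per kb of exon (y axis, starting at 0) of the initiation genes, ordered by the control mean. Points are libraries, with symbols for the replicate number, grey for control and red for MaeaCsf1r-Cre, and bars are means of 3. *Atg101*, with the shortest exonic length of the 10, lay above the others at 24.2 to 27.7 CPM per kb, and 4 genes lay between 6.38 and 6.80 CPM per kb in control.

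The spread among replicates differed between the genes. In control HSCs the SD was 2.10% of the mean for *Atg13*, 2.41% for *Pik3c3* and 2.78% for *Becn1*, and 24.5% for *Ulk1*, 19.6% for *Ulk2* and 19.3% for *Atg14*. In MaeaCsf1r-Cre HSCs it was 4.52% for *Atg13*, 11.9% for *Pik3c3*, 12.7% for *Becn1* and 17.3% for *Ulk1*. Control replicate 2 held the highest value of 6 of the 10 genes, and MaeaCsf1r-Cre replicate 1 the lowest value of 4. By pair, 4 of the 10 genes were lower in MaeaCsf1r-Cre replicate 1 than in control replicate 1, 9 in the second pair and 4 in the third. The median log2 difference of the members was 0.04, -0.31 and 0.12 in the 3 pairs, against -0.03, -0.14 and 0.0095 for all genes tested. Lower in all 3 pairs were *Rb1cc1*, *Ulk2* and *Atg14*, 3 of 10 where 23.5% of all genes tested were, and higher in all 3 was *Atg13*, 1 of 10 where 13.2% were.

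Exonic length moved with the difference between groups across all genes. Over 12475 tested genes with a length, Spearman's rho of log2 fold change with length was -0.314, across genes that are not independent replicates. The median log2 fold change was 0.08 in the shortest of 10 length bins and -0.16 in the longest. *Rb1cc1*, with 7607 exonic bases, was in the longest bin, and its log2 fold change lay above that of 19.1% of the genes there. *Atg14*, with 3729 bases, lay above 17.9% of the genes of its bin. After each library was corrected for length the log2 fold change of *Rb1cc1* was -0.21 and that of *Atg14* -0.21, while *Ulk1* was at -0.03 and *Ulk2* at -0.01. *Atg13* went to 0.22 and *Pik3c3* to 0.26, and *Becn1*, *Pik3r4* and *Uvrag* changed sign, to 0.12, 0.09 and 0.13. The median of all genes moved upward too, from -0.06 to 0.03, so part of these shifts was shared by all genes. With the correction no member passed either, the smallest adjusted p being 0.339, for *Pik3c3*, with the block. In that fit the unadjusted limma p of *Rb1cc1* was 0.0708 and that of *Pik3c3*, higher, was 0.0376. *Pik3c3* in place of *Rb1cc1* was thus the 1 member of 10 under 0.05, where 13.5% of the 12475 genes were.

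**Figure D4:**
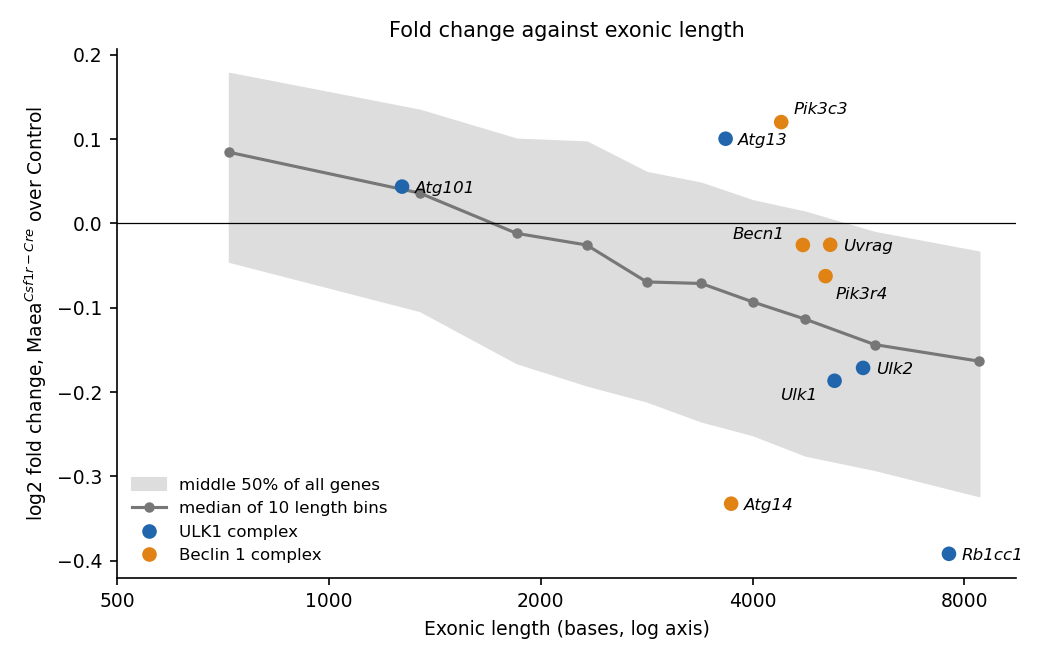
Log2 fold change (y axis, MaeaCsf1r-Cre over control) against exonic length in bases (x axis, log scale). The line joins the medians of 10 bins of all tested genes with a length and the grey band is the middle 50% of each bin, and coloured points are the initiation genes. *Rb1cc1* and *Atg14* lay below the band and *Pik3c3* and *Atg13* above it.

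Around the 2 complexes, 40 other genes of the pathway were listed, of which 37 were expressed enough to be tested. With limma 0 of the 37 had an adjusted p under 0.05, and 0 with the replicate block. At an unadjusted p under 0.05 there was 1 of the 37 genes, where 3.99% of all genes tested were, and 5 with the block, 4 lower and 1 higher, where 13.9% were. By fitted log2 fold change 24 of the 37 genes were lower, beside the 60.9% of all genes tested, and their median was -0.07, beside -0.06. The 9 partners of Beclin 1, such as *Nrbf2*, *Ambra1* and *Rubcn*, had a median of 0.0034, with 4 lower and 5 higher. They ran from -0.45 for *Bcl2* to 0.13 for *Nrbf2*. The 10 genes of lipid transfer and of PI3P reading, such as *Atg9a*, *Atg2a* and *Wipi2*, had a median of -0.10, with 9 lower, the lowest being *Zfyve1* at -0.23, again beside 60.9% of all genes tested that were lower. The 7 other phosphoinositide enzymes had a median of -0.16, with 6 lower, and the 10 upstream kinase genes tested had a median of 0.0026, with 5 lower and 5 higher. Of the 3 ULK relatives that do not form the complex *Ulk3* alone was tested, since *Ulk4* and *Stk36* stayed under 1 CPM in all libraries. *Prkag3*, a muscle form of an AMPK subunit, was at 0 to 0.202 CPM.

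**Figure D5:**
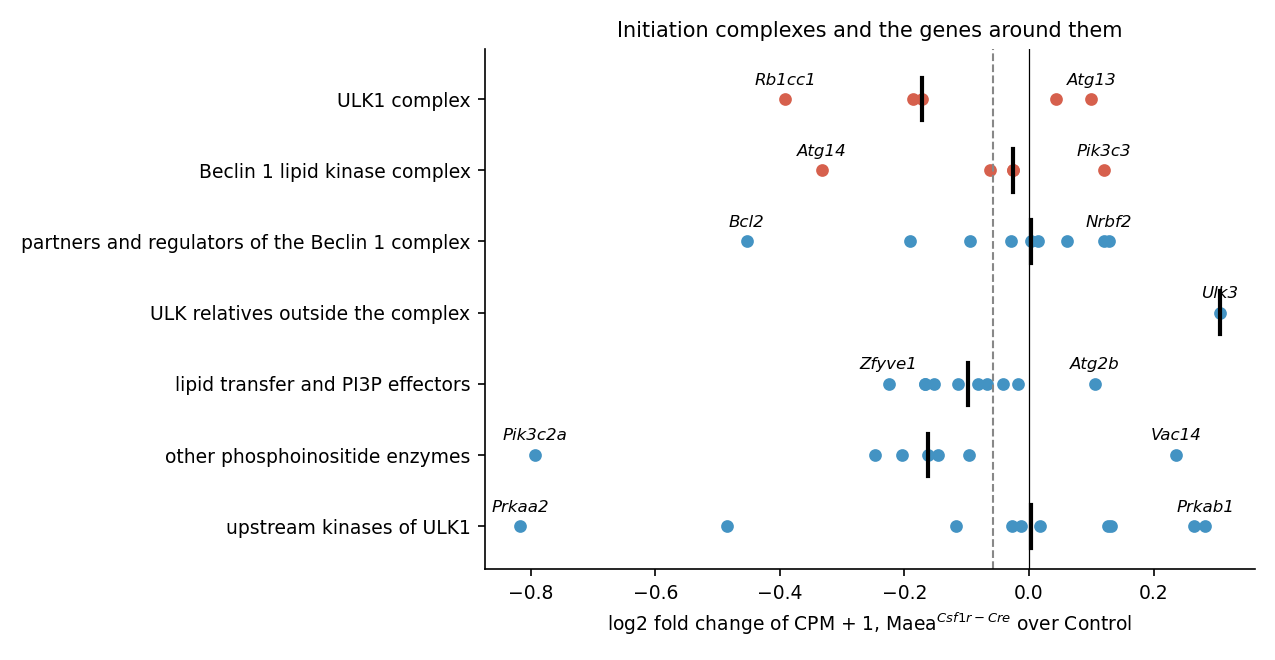
Log2 fold change of CPM + 1 (x axis, MaeaCsf1r-Cre over control) of the initiation genes (red) and of the listed genes around them (blue), 1 row a group. Short black bars are group medians, the dashed line is the median of all genes tested, and the lowest and highest gene of each row are named. The values run from -0.82 for *Prkaa2* to 0.31 for *Ulk3*.

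Among these neighbours *Prkaa2*, a catalytic subunit of AMPK, had the smallest p, with 2.91, 3.74 and 4.38 CPM in the controls and 1.49, 2.33 and 1.20 CPM in MaeaCsf1r-Cre replicates 1, 2 and 3. The groups did not overlap, and the log2 fold change was -0.82 (95% interval -1.39 to -0.24, unadjusted p = 0.0116, adjusted p = 0.967 from limma). *Prkaa1*, the other catalytic subunit, lay between 49.8 and 78.5 CPM in all libraries, with a log2 fold change of 0.02. *Pik3c2a*, a class II phosphoinositide 3-kinase, averaged 11.3 ± 4.48 CPM for control and 6.06 ± 2.81 CPM for MaeaCsf1r-Cre (SD, n = 3 each). It was lower in each pair with overlap between the groups (unadjusted p = 0.0653 from limma). Of the 37 genes, 6 were lower in all 3 pairs, where 23.5% of all genes tested were. *Mcl1*, an anti-apoptotic BCL2 relative that can bind Beclin 1, averaged 164 ± 9.98 CPM against 143 ± 7.72 CPM (SD, n = 3 each) without overlap. Its log2 fold change was -0.19 (unadjusted p = 0.122 from limma). *Prkaa2* and *Mcl1* were the 2 of the 37 genes that were lower without overlap, as were 6.06% of all genes tested. The smallest p values in the upward direction were those of *Vac14*, a scaffold for the kinase that converts PI3P onward, at 0.24, of *Mlst8*, a subunit of both mTOR complexes, at 0.27, and of *Ulk3* at 0.31 on the log2 scale, with unadjusted p of 0.128, 0.132 and 0.224 from limma.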

How the data were processed

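RNA from sorted HSCs was sequenced in 3 control and 3 MaeaCsf1r-Cre libraries (SMART-Seq v4 and Nextera XT, 150 base single-end reads). Per the labels and the methods, reads were trimmed with Trim Galore, aligned to mm10 with STAR 2.5.3a, assigned to Ensembl release 83 transcripts and normalised in Partek Flow. The values deposited by the authors are CPM, with 0.0001 added to each, which was subtracted here. The steps between low values gave the reads behind the scaling, and a signal of 3 reads was 0.0492 to 0.0910 CPM (counting error only). Between 75.0 and 77.1% of low values lay within 0.05 of a whole read, so counts were not recovered and no count test was run.

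Genes with at least 1 CPM in at least 3 libraries (12955) were fitted with limma 3.58.1 (R 4.3.3) on log2(CPM + 1) with a mean-variance trend, two-sided, Benjamini-Hochberg adjusted over all of them. Fold changes on this scale understate those of low genes. Nothing states that same-numbered libraries share mice or a day. Deviations of a library from its group's mean were correlated between same-numbered libraries (Pearson's r over genes 0.627, 0.523 and 0.397, against -0.459 to -0.0538 for other pairs), so fits with the replicate number as a block are given. Deviations within a group cancel out, so positive values for some pairs go with negative values for others. The contrast is thus not independent evidence of pairing. P-values measure the spread between libraries of pooled mice. Lengths and positions are from GENCODE M21 (GRCm38), by symbol, and *Rubcn* and *Rubcnl* were found under older symbols through RefSeq. Of shared sequence, 50-base windows of *Rb1cc1* also occur in the pseudogene *Gm13961*, and repeats within *Atg13* and *Uvrag* occur in many genes.

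The members, the lists and the rule for naming genes (*Maea*, all members, and the 3 smallest p in each direction among the other pathway genes) were chosen with earlier results of these data known. Outside that rule, values were also given for *Prkaa1*, *Prkag3*, *Zfyve1*, *Bcl2* and *Nrbf2*, and some genes were named as examples of a list. Figures used Python 3.11.15 and matplotlib 3.10.9.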

Additional observations from a re-analysis of the deposited data

How the results depend on the processing

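Each member was refitted under 15 alternatives: no filter, a 10 CPM filter, a 0.1 pseudocount, median-ratio and quantile scaling, the replicate block, each library left out, no mean-variance trend, and length correction without and with the block. None passed in any, with a smallest adjusted p of 0.266 (*Rb1cc1*, replicate block), and the block changed no call of a member. Of 150 member values 15 changed sign, all in 3 genes near 0. Changing the filter, the block or the mean-variance trend leaves the log2 fold change itself as it was, so those values could not change sign. Length correction with the block repeats the estimate without it. The share is thus no measure of how stable the signs are. *Becn1* was 0.0487 with median ratios, 0.118 with length correction, with and without the block, and -0.115 to 0.0673 with a library left out. *Pik3r4* was 0.0102 with median ratios, 0.0872 with length correction, with and without the block, and -0.157 to 0.0478 with a library left out. *Uvrag* was 0.0479 with median ratios, 0.0169 with quantile scaling, 0.126 with length correction, with and without the block, and -0.105 to 0.0931 with a library left out. The median of all genes was itself 0.01 with median ratios, 0.02 with quantile scaling and 0.03 with length correction, against -0.06 without these. Over all genes the count past the threshold was 1, with 517 at an unadjusted p under 0.05 (266 without control replicate 2, 286 without MaeaCsf1r-Cre replicate 1, 331 without control replicate 3, 933 without MaeaCsf1r-Cre replicate 3 and 949 without control replicate 1). It was 0 with a filter at 10 CPM (302 unadjusted), 0 to 3 with a library left out, 1 with the replicate block (1805 unadjusted) and 16 with length correction and the block. It was 0 without control replicate 2 or 3 and 3 without MaeaCsf1r-Cre replicate 3 (the cause was not tested). With 3 libraries a group, the 95% intervals of the members are 0.56 to 0.97 wide on the log2 scale, and reach 0.28 to 0.48 to either side of the estimate, before any adjustment over genes.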
